A study of Rattus norvegicus with 8 samples.

Results

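The genes of the citric acid cycle and of pyruvate entry into it were followed in rat heart muscle cells in which Echs1, the gene for a mitochondrial enoyl-CoA hydratase, was targeted by a small interfering RNA. The genes were chosen by name and role: enzymes of the cycle, the mitochondrial pyruvate carrier and the pyruvate dehydrogenase complex with its kinases and phosphatases. Also chosen were enzymes that add intermediates to the cycle, draw them from it or exchange them with amino acids. Of 39 symbols, 37 matched a row of the table of 21017 genes, and Idh3b and Ogdh are not analysed here. RNA was taken from neonatal rat cardiomyocytes of the strain labelled SD, 48 h after transfection with siECHS1 (4 libraries) or with the control duplex siNC (4 libraries). All 8 libraries thus come from transfected cultures, and no untransfected cells were compared. The labels do not say whether the 4 libraries of a group come from separate cultures or animals, so a p-value here reflects the spread among the sequenced libraries alone, which may be technical. Levels are FPKM (fragment counts divided by gene length and by the reads of the library), given as mean ± SD over 4 libraries where they are averaged.

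In the cycle, acetyl-CoA is joined to oxaloacetate to form citrate, and a chain of dehydrogenases then releases carbon dioxide and hands electrons to the respiratory chain. Pyruvate reaches it through a carrier of the inner mitochondrial membrane and the pyruvate dehydrogenase complex, which kinases switch off and phosphatases switch on. In the heart much of the acetyl-CoA comes from fatty acid beta-oxidation, the pathway in which Echs1 hydrates short-chain enoyl-CoA.

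The row listed as Echs1 averaged 0.516 ± 0.112 FPKM in siECHS1 and 1.33 ± 0.244 FPKM in siNC, and LOC100911186, a row with the same protein match, averaged 3.38 ± 0.385 FPKM in siECHS1 and 6.61 ± 0.782 FPKM in siNC. LOC100911186 fell (log2 change -0.80, SE 0.089, limma adjusted p = 0.000272), and how reads of Echs1 divide between these rows is uncertain. Library totals lay between 16953309 and 18237111 reads. The summed level of 8 cardiomyocyte markers, Tnnt2 and Myh6 among them, was 7927 to 8778 FPKM in siECHS1 and 7809 to 8089 FPKM in siNC, so the defining markers of the labelled cell type were present in both groups. Markers of other cell types were detected too: 7 fibroblast markers summed to 3645 to 4015 FPKM in siECHS1 and 2795 to 2997 FPKM in siNC, and 6 smooth muscle and pericyte markers to 4104 to 4471 FPKM in siECHS1 and 4298 to 4394 FPKM in siNC. The fibroblast sum did not overlap between groups, with 4 of 7 genes up (Col1a1, Col3a1, Dcn and Postn) and 1 down (Lum) in the limma test, and of the cardiomyocyte markers 2 fell (Myh6 and Tnni3) and 1 rose (Actc1). The 4 epicardial markers summed to 31.7 to 33.3 FPKM in siECHS1 and 24.1 to 27.0 FPKM in siNC, where Upk1b rose (28.9 ± 0.842 FPKM in siECHS1 and 21.4 ± 0.652 FPKM in siNC), Wt1 fell (2.26 ± 0.103 FPKM in siECHS1 and 3.06 ± 0.432 FPKM in siNC), Msln was not called and Upk3b was below 1 FPKM. Further lists summed as follows: 5 endothelial markers to 26.3 to 27.0 FPKM in siECHS1 and 24.6 to 27.2 FPKM in siNC, 6 macrophage and leukocyte markers to 27.6 to 30.2 FPKM in siECHS1 and 27.7 to 28.1 FPKM in siNC, 4 Schwann cell markers to 6.66 to 8.10 FPKM in siECHS1 and 7.76 to 8.65 FPKM in siNC, and 2 erythroid markers to 0.158 to 0.229 FPKM in siECHS1 and 0.627 to 0.887 FPKM in siNC. Within the smooth muscle and pericyte list Acta2 rose and Tagln fell in the limma test, and the rest were not called. Within the macrophage and leukocyte list Cd68 rose, Csf1r fell and Cd14 was not called, while Ptprc, Adgre1 and C1qa averaged below 1 FPKM. No marker row was at 0 in every library, and the part of the cell mixture in the changes below was not tested.

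Transcripts of the cycle were mostly lower in siECHS1. A change is called where the limma test of siECHS1 against siNC on log2(FPKM + 1) has a Benjamini-Hochberg adjusted p under 0.05, over the 12616 genes that averaged 1 FPKM or more. All 37 members passed that filter. By this rule 15 of 37 members (40.5%) fell, against 12.2% of all genes tested, and 2 of 37 (5.41%) rose, against 8.83%. The remaining 20 were not called. At an unadjusted limma p under 0.05, 17 members were lower and 4 higher, and the share of all genes at that level was not computed. The median log2 change was -0.10 over the members and -0.014 over all genes tested, and 27 of 37 members had a negative value, as did 6812 of 12616 genes. Since these are bulk cultures, fewer cells of a type and less RNA per cell cannot be told apart. Under median-of-ratios scaling 1243 genes of the whole table fell and 1288 rose, in place of 1541 and 1114, while 14 members fell and 3 rose.

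The changes were small. The members that fell stood at 76.9% to 92.9% of their siNC mean, and the 2 that rose, Idh2 and Me3, at 110% and 117%. Most members that fell were abundant: of 23 with a mean of at least 50 FPKM, a split chosen after the values were seen, 14 fell and 1 rose, while of 14 below it 1 fell and 1 rose. Among all 1775 tested genes at or above 50 FPKM, 16.5% fell and 15.6% rose. Of all tested genes above 10 and up to 50 FPKM, 16.0% fell and 10.6% rose, and of those up to 10 FPKM 7.70% fell and 5.27% rose. The members below 50 FPKM, at 7.14% each way, lay near these shares. In 15 members every siECHS1 library lay below every siNC library, against 14.9% of all genes tested, and in 4 (Idh2, Me3, Pdk1 and Me2) every siECHS1 library lay above, against 10.3%. The 37 members together summed to 3652 ± 97.0 FPKM in siECHS1 and 3977 ± 85.4 FPKM in siNC, 91.8% of siNC, and the sums of the 2 groups did not overlap. Within siECHS1, library 4 was the highest of the 4 for 8 of the 15 fallen members and library 3 the lowest for 9. Within siNC, library 2 was the highest for 7 of them and library 3 the lowest for 8.

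**Figure D1:**
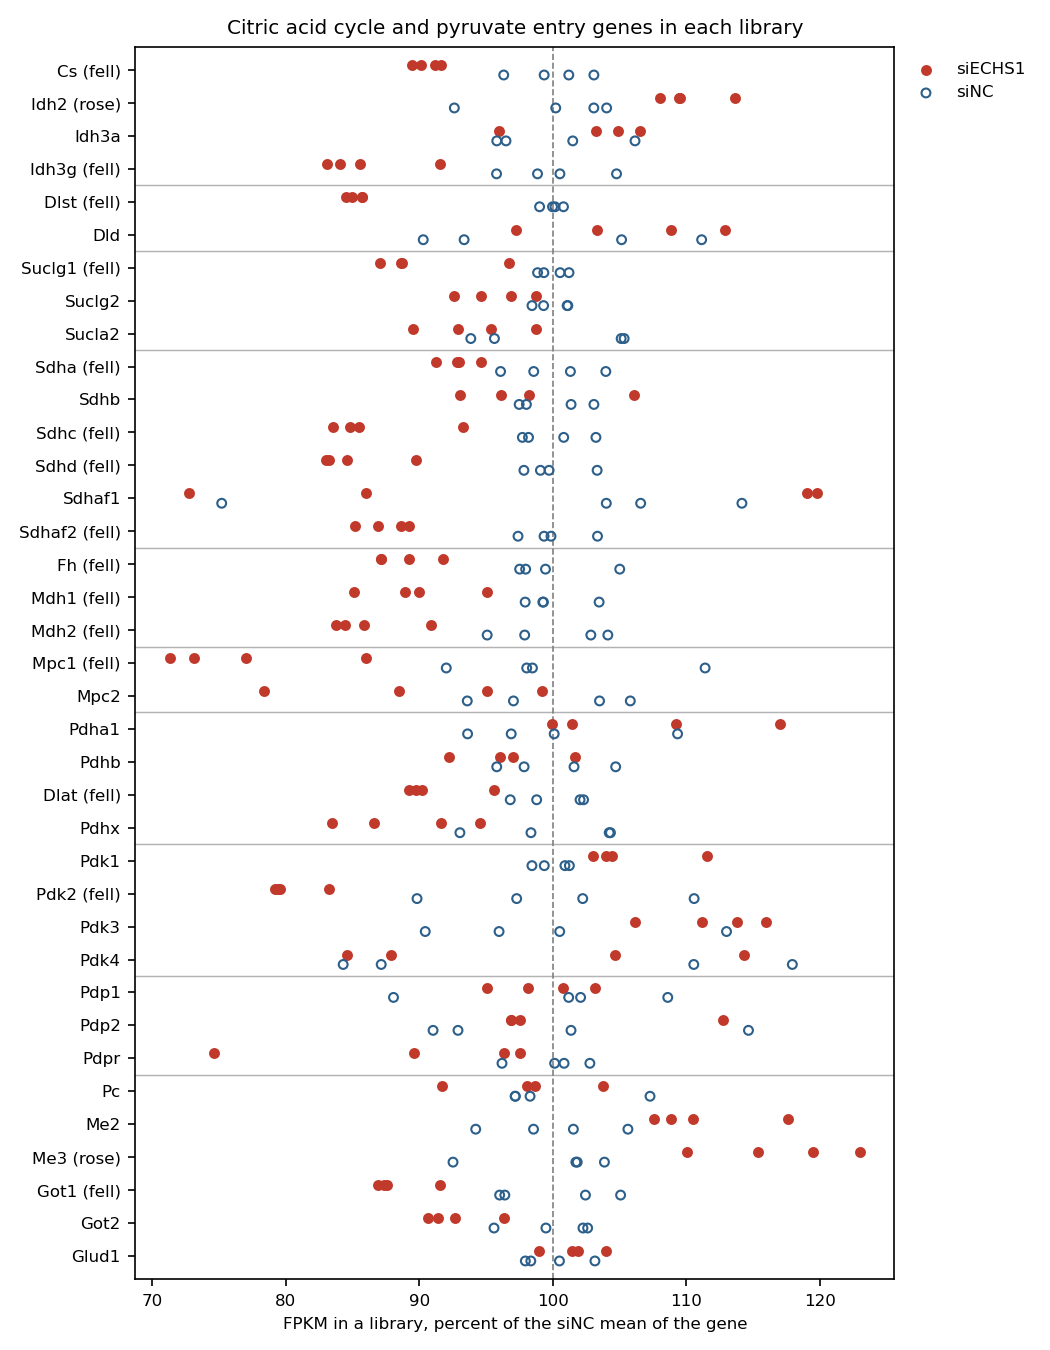
Level of each of the 37 members in each library, as a percent of the gene's siNC mean (horizontal axis), with siECHS1 libraries as filled points above and siNC libraries as open points below in each row, and with the limma call beside the name. The 15 members that fell have their siECHS1 points left of all siNC points, and Mpc1 lies farthest left.

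**Figure D2:**
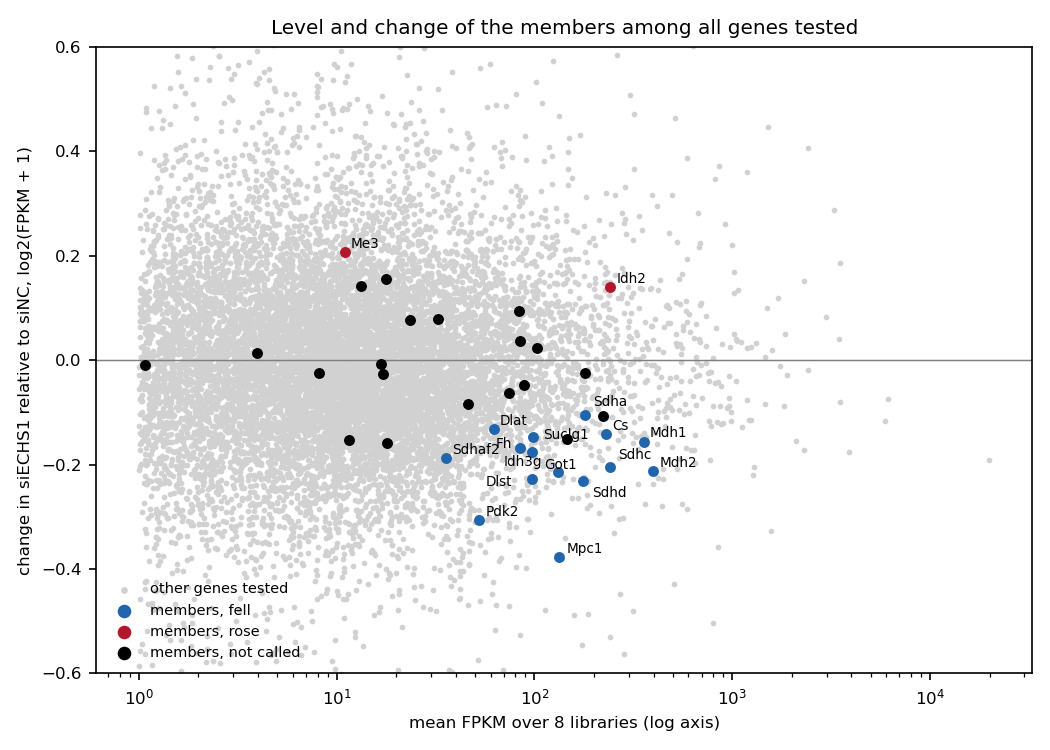
Change in siECHS1 relative to siNC on the log2(FPKM + 1) scale (vertical axis) against mean FPKM over 8 libraries (log axis) for all genes tested, with members coloured by call. The members that fell sit mostly above 50 FPKM at changes between -0.10 and -0.38, and 136 genes with a change beyond 0.6 in size lie outside the plotted range.

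The promoters of the members were searched for motifs of factors known to act on genes of mitochondrial metabolism. Promoters of 300 bases, 250 before and 50 after the gene start, were taken from RefSeq (build GRCr8) and found for 33 of the 37 members, all but Pdp1, Pdp2, Pc and Idh3a. Both strands were searched for TCAAGGTCA, the half-site of the estrogen-related receptors, for GCATGCGC, the core of NRF1 sites, and for CCGGAAG, the core of ETS and GABP sites, 3 motifs that do not overlap one another in the promoters printed here. CCGGAAG was found in 9 of 33 promoters (27.3%; Dlst, Glud1, Idh3g, Mdh2, Mpc2, Sdhaf1, Sdhaf2, Sdhb and Sdhd), against 8.75% of all 33469 promoters of that length. The full set was not matched to the members for expression or for G and C content, and whether the difference is particular to the members was not tested. Of these 9 members, 5 fell (Dlst, Idh3g, Mdh2, Sdhaf2 and Sdhd; 55.6%), near the 15 of all 33 members with a promoter (45.5%). TCAAGGTCA was found in 1 promoter (Sdhd; 3.03%, against 0.433% of all promoters) and GCATGCGC in 2 (Glud1 and Sdhb; 6.06%, against 2.47%). Dlst, Sdhd and Mpc1 had the smallest adjusted p-values of the members, and their promoters are shown 5′ to 3′, with capitals at matches to a motif on either strand.
Dlst (chr6:110489456-110489755, plus strand): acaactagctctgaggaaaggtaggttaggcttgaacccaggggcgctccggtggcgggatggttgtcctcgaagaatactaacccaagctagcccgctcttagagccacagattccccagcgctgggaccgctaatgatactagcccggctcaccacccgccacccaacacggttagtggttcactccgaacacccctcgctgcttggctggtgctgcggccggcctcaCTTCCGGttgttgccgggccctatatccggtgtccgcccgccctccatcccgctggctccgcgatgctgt
Sdhd (chr8:59850592-59850891, minus strand): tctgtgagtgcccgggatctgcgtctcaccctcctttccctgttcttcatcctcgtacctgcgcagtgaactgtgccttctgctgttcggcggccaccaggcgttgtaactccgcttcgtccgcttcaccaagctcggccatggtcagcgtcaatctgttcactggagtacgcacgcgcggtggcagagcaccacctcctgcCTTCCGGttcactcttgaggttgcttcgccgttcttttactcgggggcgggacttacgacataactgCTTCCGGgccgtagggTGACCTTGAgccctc
Mpc1 (chr1:54996909-54997208, minus strand): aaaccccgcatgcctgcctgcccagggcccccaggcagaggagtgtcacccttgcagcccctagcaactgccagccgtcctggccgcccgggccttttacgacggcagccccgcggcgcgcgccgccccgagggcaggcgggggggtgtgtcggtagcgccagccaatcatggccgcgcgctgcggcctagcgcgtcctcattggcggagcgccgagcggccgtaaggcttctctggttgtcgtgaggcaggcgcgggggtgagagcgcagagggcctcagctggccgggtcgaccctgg
The Dlst promoter holds 1 match, CCGGAAG on the reverse strand, and the Sdhd promoter holds 3, with the ERR half-site and 2 ETS cores all on the reverse strand. In the Mpc1 promoter these letters are not in this window. The G and C content was 62.3% for Dlst, 60.0% for Sdhd and 73.3% for Mpc1.

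Pyruvate entry showed the largest fall of any member, in one of the 2 carrier subunits. Mpc1 and Mpc2 form the mitochondrial pyruvate carrier as a pair. Mpc1 had 115, 109, 107 and 129 FPKM in the 4 siECHS1 libraries, against 147, 167, 138 and 147 FPKM in the 4 siNC libraries (ENSRNOG00000012415, chromosome 1, 53026608 to 53038229, minus strand). No siECHS1 library reached the lowest siNC library, and Mpc1 stood at 76.9% of siNC (log2 change -0.38, SE 0.068, limma adjusted p = 0.00357). Mpc2 had 145, 135, 119.7 and 152 FPKM in the 4 siECHS1 libraries, against 158, 162, 143 and 148 FPKM in the 4 siNC libraries. These groups overlap, and Mpc2 was not called (log2 change -0.15, SE 0.069, limma adjusted p = 0.153). The log2 ratio of Mpc1 to Mpc2 was -0.26 ± 0.075 in siECHS1 and -0.030 ± 0.065 in siNC, a difference of -0.23 (exact two-sided permutation test over 70 assignments, p = 0.0286, the smallest possible, adjusted over 9 such ratios to 0.0857). The ratio therefore differed at the unadjusted level and did not pass after adjustment.

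The pyruvate dehydrogenase complex turns pyruvate into acetyl-CoA, and 1 of its 4 members here fell. The summed level of Pdha1, Pdhb, Dlat and Pdhx was 249 ± 7.74 FPKM in siECHS1 and 254 ± 10.4 FPKM in siNC. Pdha1 had 94.2, 87.9, 81.6 and 80.4 FPKM in the 4 siECHS1 libraries, against 88.0, 80.6, 78.0 and 75.3 FPKM in the 4 siNC libraries. Pdha1, which encodes the E1 alpha subunit that the kinases phosphorylate, overlapped between groups and was not called (log2 change 0.095, SE 0.060, limma adjusted p = 0.294). Its row shares a protein match with Pdha1l1, at a mean of 12.5 FPKM, so part of its reads may belong there. Pdhb, the E1 beta subunit, averaged 86.7 ± 3.49 FPKM in siECHS1 and 89.6 ± 3.55 FPKM in siNC and was not called either. Dlat, the E2 acetyltransferase core (ENSRNOG00000009994, chromosome 8, 55062551 to 55087832, minus strand), had 62.3, 58.1, 58.8 and 58.5 FPKM in the 4 siECHS1 libraries, against 66.6, 66.5, 63.1 and 64.4 FPKM in the 4 siNC libraries. All siECHS1 values lay below all siNC values, and Dlat fell to 91.2% of siNC (log2 change -0.13, SE 0.036, limma adjusted p = 0.0251). Its row shares a protein match with LOC679881, at a mean of 0.322 FPKM. Dlat lost its call in 6 of 17 alternatives, with adjusted p between 0.054 and 0.0761: without siECHS1 library 2 or 3, without siNC library 1 or 2, without the variance trend, and under quantile normalization. Pdhx, the E3-binding protein that anchors Dld to the complex, averaged 17.0 ± 0.949 FPKM in siECHS1 and 19.1 ± 1.03 FPKM in siNC and missed the threshold (log2 change -0.16, SE 0.053, limma adjusted p = 0.0585), which it passed in 4 of 17 alternatives, among them those without siECHS1 library 4 or siNC library 4.

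Of the 4 kinases that inactivate the complex, Pdk2 alone passed the test, and it was the most abundant. Pdk2 had 46.4, 46.2, 48.5 and 46.3 FPKM in the 4 siECHS1 libraries, against 52.4, 56.7, 59.6 and 64.5 FPKM in the 4 siNC libraries (ENSRNOG00000004172, chromosome 10, 82839153 to 82852660, minus strand). The siECHS1 values are close together and the siNC values spread more widely, with no overlap, and Pdk2 stood at 80.4% of siNC (log2 change -0.31, SE 0.056, limma adjusted p = 0.00394). Pdk4 had 9.41, 8.61, 7.23 and 6.96 FPKM in the 4 siECHS1 libraries, against 9.10, 6.94, 9.71 and 7.17 FPKM in the 4 siNC libraries. The groups overlap fully for Pdk4, the kinase known for its induction by fasting and fatty acids (log2 change -0.024, SE 0.12, limma adjusted p = 0.91). Pdk1, a kinase known as a hypoxia target, averaged 24.2 ± 0.891 FPKM in siECHS1 and 22.9 ± 0.302 FPKM in siNC. Every siECHS1 library of Pdk1 was above every siNC library, without a call (log2 change 0.077, SE 0.038, limma adjusted p = 0.18). Pdk3 averaged 18.8 ± 0.712 FPKM in siECHS1 and 16.8 ± 1.62 FPKM in siNC and was not called (log2 change 0.16, SE 0.063, limma adjusted p = 0.106), though without siNC library 1 its adjusted p was 0.0178. The 4 kinases summed to 97.9 ± 1.16 FPKM in siECHS1 and 106 ± 3.42 FPKM in siNC, without overlap. As a share of that sum, Pdk2 made up 47.8 ± 0.852% in siECHS1 and 54.8 ± 3.44% in siNC, and Pdk1 24.7 ± 0.760% in siECHS1 and 21.6 ± 0.969% in siNC. The share of Pdk3 was 19.2 ± 0.885% in siECHS1 and 15.9 ± 1.84% in siNC, and that of Pdk4 was 8.22 ± 1.16% in siECHS1 and 7.75 ± 1.27% in siNC. The log2 ratio of Pdk4 to Pdk2 differed by 0.28 (exact permutation p = 0.171, adjusted 0.22), which does not pass. The phosphatases that reactivate the complex were not called: Pdp1 averaged 16.7 ± 0.583 FPKM in siECHS1 and 16.9 ± 1.45 FPKM in siNC, Pdp2 3.97 ± 0.308 FPKM in siECHS1 and 3.93 ± 0.423 FPKM in siNC, and their regulatory subunit Pdpr 10.9 ± 1.28 FPKM in siECHS1 and 12.2 ± 0.337 FPKM in siNC (log2 change -0.15, SE 0.074, limma adjusted p = 0.171).

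**Figure D3:**
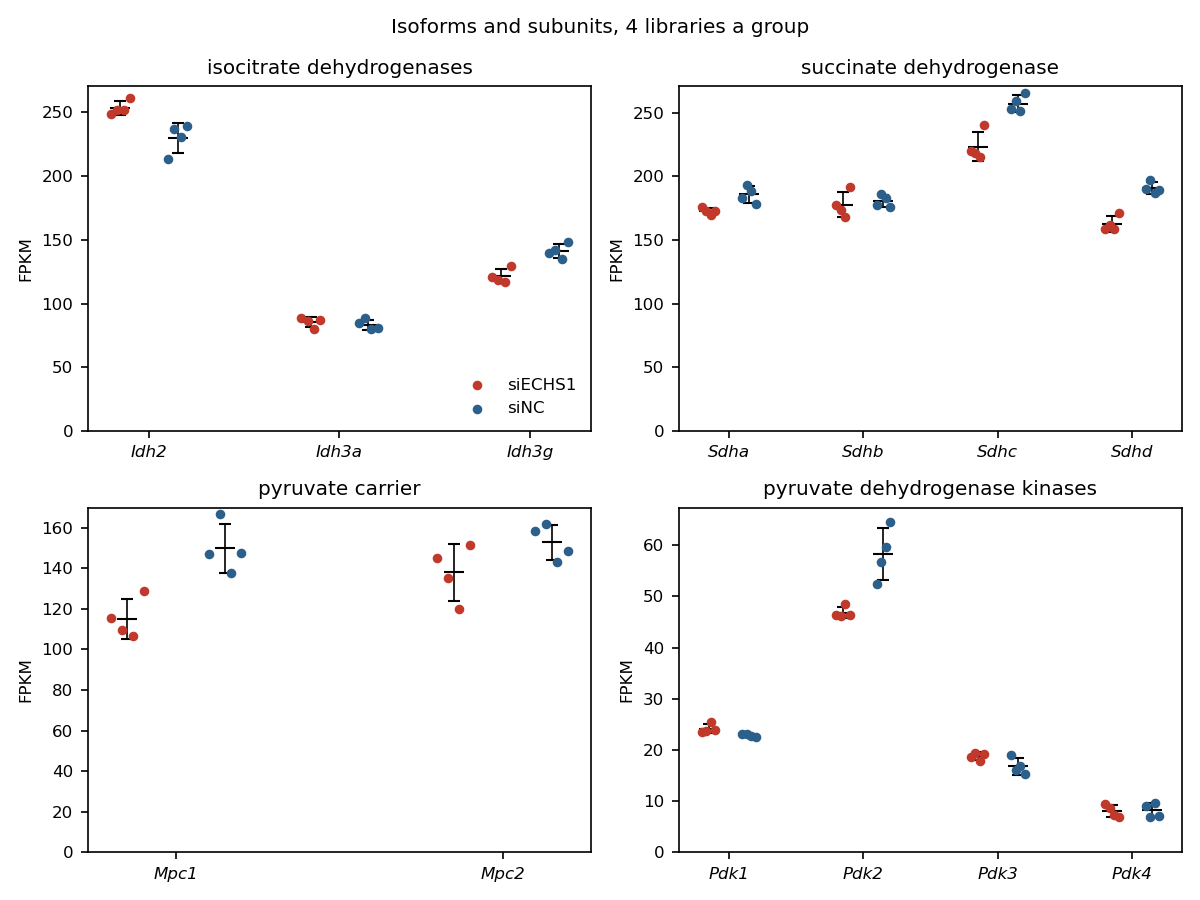
FPKM per library for the isocitrate dehydrogenases, succinate dehydrogenase, the pyruvate carrier and the pyruvate dehydrogenase kinases, with siECHS1 left of siNC for each gene, the horizontal bar at the mean and the error bar 1 SD over 4 libraries. Idh3g, Sdha, Sdhc, Sdhd, Mpc1 and Pdk2 are lower in siECHS1 without overlap. Idh2 and Pdk1 are higher without overlap, Pdk1 without a call, and Idh3a, Sdhb, Mpc2, Pdk3 and Pdk4 overlap.

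At the entry of the cycle itself, citrate synthase fell, and the isocitrate dehydrogenases moved in different directions. Cs, which condenses acetyl-CoA with oxaloacetate (ENSRNOG00000023520, chromosome 7, 2752680 to 2778963, plus strand), had 220.2, 219, 215 and 217 FPKM in the 4 siECHS1 libraries, against 232, 248, 243 and 239 FPKM in the 4 siNC libraries. The groups are apart, at 90.6% of siNC (log2 change -0.14, SE 0.031, limma adjusted p = 0.00948). Idh3a and Idh3g encode the catalytic alpha and a regulatory gamma subunit of the NAD-dependent isocitrate dehydrogenase. Idh3g had 121, 119, 117 and 129 FPKM in the 4 siECHS1 libraries, against 139.6, 142, 135 and 148 FPKM in the 4 siNC libraries (ENSRNOG00000055572, chromosome X, 156999826 to 157008733, plus strand). Idh3g fell without overlap to 86.1% of siNC (log2 change -0.21, SE 0.041, limma adjusted p = 0.00461). Idh3a averaged 85.5 ± 3.88 FPKM in siECHS1 and 83.3 ± 4.03 FPKM in siNC and was not called (log2 change 0.038, SE 0.045, limma adjusted p = 0.599). The log2 ratio of Idh3g to Idh3a differed by -0.25 (exact permutation p = 0.0286, the smallest possible, adjusted 0.0857), which does not pass after adjustment.

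Idh2, the NADP-dependent mitochondrial isocitrate dehydrogenase that supplies NADPH, rose. It was alone in this among the 16 cycle enzyme genes tested, cytosolic Mdh1 counted with them. Idh2 had 249, 252, 252 and 262 FPKM in the 4 siECHS1 libraries, against 213, 237, 231 and 239 FPKM in the 4 siNC libraries (ENSRNOG00000013949, chromosome 1, 141866283 to 141893705, minus strand). The lowest siECHS1 value lay above the highest siNC value, and Idh2 stood at 110.2% of siNC (log2 change 0.14, SE 0.040, limma adjusted p = 0.0325). The call was lost in 8 of 17 alternatives, with adjusted p between 0.0522 and 0.0716: with any one siECHS1 library left out, without siNC library 1 or 3, without the low-level filter and without the variance trend. Idh2 overlaps Zfp710 in the genome, a gene averaging 8.90 ± 0.344 FPKM in siECHS1 and 10.3 ± 0.821 FPKM in siNC, and whether reads were counted by strand is not stated in those sources that were used. Idh2 also lies 35518 bases from the row listed as Echs1, with 1 listed gene between. LOC100911186, the more highly expressed row with the same protein match, lies far from Idh2 on chromosome 1, at 212570195 to 212579057. Idh2 relative to Idh3a differed by 0.10 in log2 ratio (exact permutation p = 0.171, adjusted 0.22), which does not pass.

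The steps that form and use succinyl-CoA carried the member with the smallest adjusted p. Dlst is the succinyltransferase (E2) core of the 2-oxoglutarate dehydrogenase complex, and its Ogdh partner is not analysed here. Dlst had 88.3, 88.7, 89.5 and 89.5 FPKM in the 4 siECHS1 libraries, against 103, 105, 104 and 105 FPKM in the 4 siNC libraries (ENSRNOG00000005061, chromosome 6, 108936664 to 108959803, plus strand). The libraries of each group lie within a few percent of one another and the groups are well apart, at 85.2% of siNC (log2 change -0.23, SE 0.027, limma adjusted p = 0.00035). Dld, the dihydrolipoamide dehydrogenase that this complex shares with pyruvate dehydrogenase, averaged 33.6 ± 2.16 FPKM in siECHS1 and 31.8 ± 3.12 FPKM in siNC and was not called (log2 change 0.079, SE 0.069, limma adjusted p = 0.461). Succinyl-CoA ligase pairs the alpha subunit Suclg1 with either Suclg2 (GTP-forming) or Sucla2 (ATP-forming). Suclg1 (ENSRNOG00000005587, chromosome 4, 101180404 to 101210746, plus strand) had 91.6, 91.6, 89.9 and 99.9 FPKM in the 4 siECHS1 libraries, against 105, 102, 104 and 103 FPKM in the 4 siNC libraries. It fell without overlap (log2 change -0.15, SE 0.037, limma adjusted p = 0.0192), with siECHS1 library 4 nearest to siNC. Leaving out siECHS1 library 1, 2 or 3, or siNC library 3, ended this call, with adjusted p between 0.0508 and 0.0586. Suclg2 averaged 72.8 ± 2.03 FPKM in siECHS1 and 76.1 ± 1.01 FPKM in siNC, Sucla2 44.7 ± 1.85 FPKM in siECHS1 and 47.4 ± 2.89 FPKM in siNC, and neither was called.

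Succinate dehydrogenase, which is both a cycle enzyme and respiratory complex II, fell in 3 of its 4 subunits. Sdhc and Sdhd anchor the complex in the inner membrane, while Sdha carries the flavin and Sdhb the iron-sulfur clusters. Sdhc (ENSRNOG00000003163, chromosome 13, 89498048 to 89518939, minus strand) had 219.8, 218, 215 and 239.9 FPKM in the 4 siECHS1 libraries, against 252, 259, 251 and 265 FPKM in the 4 siNC libraries. Sdhd (ENSRNOG00000022980, chromosome 8, 55028125 to 55037604, minus strand) had 159, 161, 158 and 171 FPKM in the 4 siECHS1 libraries, against 190.2, 197, 187 and 189 FPKM in the 4 siNC libraries. Both anchors fell without overlap, Sdhc to 86.8% (log2 change -0.20, SE 0.040, limma adjusted p = 0.00546) and Sdhd to 85.2% of siNC (log2 change -0.23, SE 0.035, limma adjusted p = 0.00136). Sdha had 176, 172, 169 and 173 FPKM in the 4 siECHS1 libraries, against 183, 193, 188 and 178 FPKM in the 4 siNC libraries (ENSRNOG00000013331, chromosome 1, 31545631 to 31570601, plus strand). Sdha also fell (log2 change -0.10, SE 0.033, limma adjusted p = 0.0461), and its call was lost in 12 of 17 alternatives, with adjusted p between 0.0523 and 0.127, among them both scalings, any one siECHS1 library left out, and siNC library 1, 2 or 3 left out. Sdhb had 177, 174, 168 and 192 FPKM in the 4 siECHS1 libraries, against 177, 186, 183 and 176 FPKM in the 4 siNC libraries. The Sdhb groups overlap (log2 change -0.025, SE 0.042, limma adjusted p = 0.726). The log2 ratio of Sdhd to Sdha was -0.088 ± 0.055 in siECHS1 and 0.039 ± 0.040 in siNC (exact permutation p = 0.0286, the smallest possible, adjusted 0.0857), which does not pass after adjustment.

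Sdhaf2 and Sdhaf1 are assembly factors of succinate dehydrogenase, for flavin insertion into Sdha and for the iron-sulfur subunit. Sdhaf2 (ENSRNOG00000020646, chromosome 1, 226547531 to 226572349, minus strand) had 33.8, 33.0, 33.6 and 32.3 FPKM in the 4 siECHS1 libraries, against 39.2, 37.7, 36.9 and 37.9 FPKM in the 4 siNC libraries. It fell without overlap to 87.5% of siNC (log2 change -0.19, SE 0.034, limma adjusted p = 0.00393). Sdhaf1 rests on 73 reads over the siECHS1 libraries and 71 over the siNC libraries, so a change of the size seen in the subunits was not detectable at this depth (1.07 ± 0.255 FPKM in siECHS1 and 1.08 ± 0.184 FPKM in siNC). Its row also shares a protein match with another listed gene. Together the 4 subunits summed to 736 ± 27.8 FPKM in siECHS1 and 814 ± 14.6 FPKM in siNC, 90.4% of siNC. Sdhd and Dlat lie 24946 bases apart on chromosome 8, with 3 listed genes between them.

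The last steps, which turn fumarate through malate back to oxaloacetate, fell in Fh and Mdh2, and the cytosolic Mdh1 fell as well. Fh, fumarase (ENSRNOG00000003653, chromosome 13, 93651484 to 93677377, minus strand), had 78.1, 80.1, 78.1 and 82.3 FPKM in the 4 siECHS1 libraries, against 87.9, 94.2, 87.5 and 89.2 FPKM in the 4 siNC libraries. Mdh2, the mitochondrial malate dehydrogenase (ENSRNOG00000001440, chromosome 12, 23941448 to 23954431, minus strand), had 367, 361, 358 and 388 FPKM in the 4 siECHS1 libraries, against 406, 439.7, 418 and 445 FPKM in the 4 siNC libraries. Fh stood at 88.8% (log2 change -0.17, SE 0.035, limma adjusted p = 0.00768) and Mdh2 at 86.2% of siNC (log2 change -0.21, SE 0.040, limma adjusted p = 0.00467), both without overlap. Mdh1, the cytosolic malate dehydrogenase of the malate-aspartate shuttle (ENSRNOG00000008103, chromosome 14, 106378942 to 106393670, minus strand), had 319.7, 338, 334 and 357 FPKM in the 4 siECHS1 libraries, against 368, 389, 373 and 373 FPKM in the 4 siNC libraries. It fell too (log2 change -0.16, SE 0.038, limma adjusted p = 0.0168), with an adjusted p of 0.0515 in limma when siNC library 2 was left out. Mdh1 relative to Mdh2 differed in log2 ratio by 0.057 (exact permutation p = 0.143, adjusted 0.22), which does not pass. The 3 genes summed to 786 ± 28.9 FPKM in siECHS1 and 893 ± 27.3 FPKM in siNC. Of the 16 cycle enzyme genes counted without the assembly factors but with cytosolic Mdh1, 10 fell (62.5%) and 1 rose (6.25%). Of all genes tested 12.2% fell and 8.83% rose, and of those at or above 50 FPKM 16.5% fell and 15.6% rose. The median log2 change was -0.14 over these 16 genes and -0.014 over all genes tested.

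A further 6 members add intermediates to the cycle, draw them from it or exchange them with amino acids. Of these 6, 1 fell and 1 rose (16.7% each way), near the 12.2% and 8.83% of all genes tested. Pc had 16.0, 17.2, 18.1 and 17.1 FPKM in the 4 siECHS1 libraries, against 16.9, 17.1, 16.9 and 18.7 FPKM in the 4 siNC libraries. Pc, pyruvate carboxylase, which makes oxaloacetate, overlapped between groups (log2 change -0.027, SE 0.050, limma adjusted p = 0.749), and it shares genomic bases with Lrfn4, at 17.2 ± 1.24 FPKM in siECHS1 and 16.6 ± 0.870 FPKM in siNC. Between the carboxylating and the oxidizing route for pyruvate, the log2 ratio of Pc to Pdha1 differed by -0.12 (exact permutation p = 0.371, adjusted 0.418). Me3 had 12.4, 12.1, 11.1 and 11.7 FPKM in the 4 siECHS1 libraries, against 9.36, 10.3, 10.3 and 10.5 FPKM in the 4 siNC libraries (ENSRNOG00000017311, chromosome 1, 153861569 to 154056654, plus strand). Me3, a mitochondrial NADP-dependent malic enzyme, rose without overlap to 117% of siNC (log2 change 0.21, SE 0.052, limma adjusted p = 0.0187), and lost its call without siECHS1 library 1 or 2 (adjusted p 0.0559 without library 1 and 0.0552 without library 2 in limma). Me2, the other mitochondrial malic enzyme, averaged 14.0 ± 0.566 FPKM in siECHS1 and 12.6 ± 0.608 FPKM in siNC, with every siECHS1 library higher and no call (log2 change 0.14, SE 0.049, limma adjusted p = 0.062). Under the 2 scaling alternatives Me2 was called, with adjusted p of 0.0369 and 0.0408 in limma.

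Got1, the cytosolic aspartate aminotransferase of the malate-aspartate shuttle (ENSRNOG00000016356, chromosome 1, 263246248 to 263269762, minus strand), had 94.3, 89.9, 89.5 and 90.1 FPKM in the 4 siECHS1 libraries, against 99.2, 105, 98.8 and 108 FPKM in the 4 siNC libraries. It fell without overlap to 88.4% of siNC (log2 change -0.18, SE 0.038, limma adjusted p = 0.00939). Got2, the mitochondrial enzyme of the shuttle, averaged 215 ± 5.86 FPKM in siECHS1 and 231 ± 7.50 FPKM in siNC and lay just outside the threshold (log2 change -0.11, SE 0.035, limma adjusted p = 0.0511), passing it in 6 of 17 alternatives, among them those without siECHS1 library 4 or siNC library 1. Got1 relative to Got2 differed in log2 ratio by -0.068 (exact permutation p = 0.0571, adjusted 0.129). Glud1, which feeds glutamate in as 2-oxoglutarate, averaged 104 ± 2.12 FPKM in siECHS1 and 103 ± 2.45 FPKM in siNC and was not called.

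**Figure D4:**
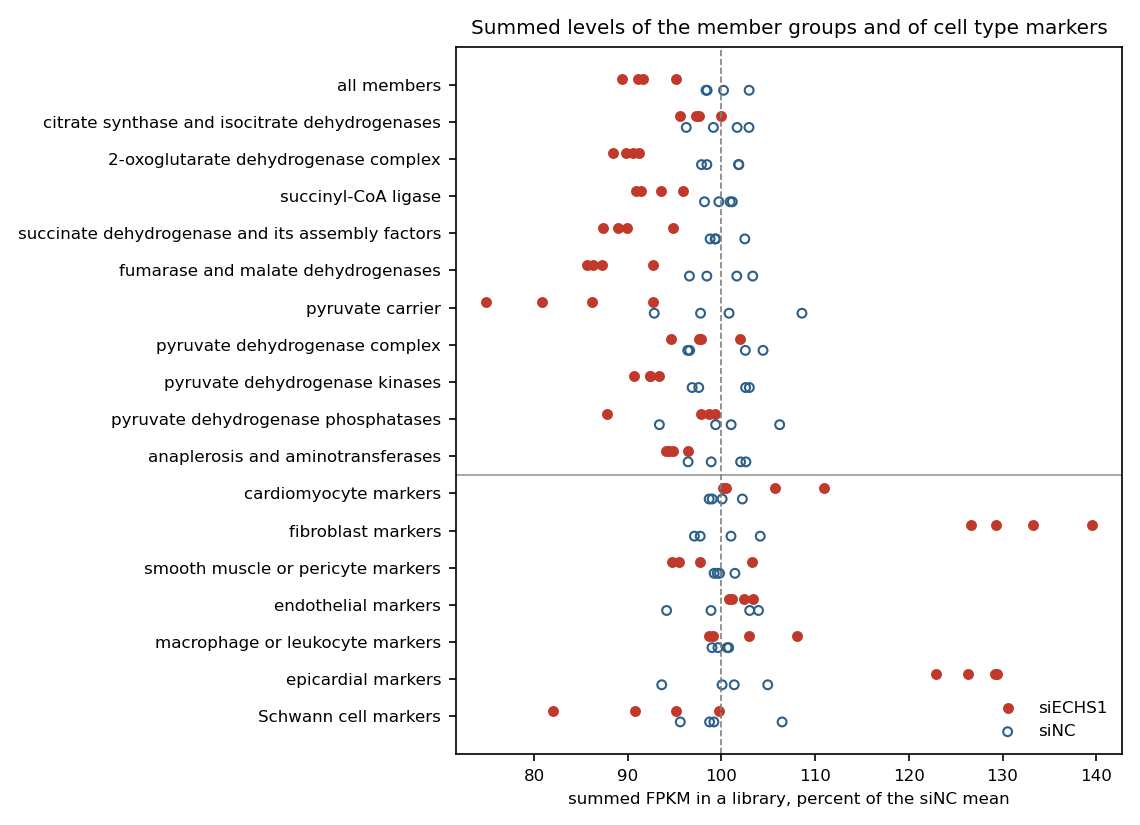
Summed FPKM in each library, as a percent of the siNC mean (horizontal axis), for the member groups above the line and for cell type marker lists below it, with siECHS1 as filled and siNC as open points. The sum of all members is lower in siECHS1 without overlap, and so are those of most member groups. The sums of citrate synthase with isocitrate dehydrogenases, of the pyruvate dehydrogenase complex and of its phosphatases overlap. For the pyruvate carrier and for anaplerosis and aminotransferases the sums are barely apart. The fibroblast and epicardial marker sums are higher without overlap, though Lum and Wt1 in these lists fell.

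Other genes of the pathway, from a list of lipoate and iron-sulfur assembly factors, carriers and neighbouring enzymes, passed the test about as often as genes at large. Of 43 rows found for this list, 38 were tested, 6 fell (Nnt, Iba57, Slc25a11, Slc25a13, Gls2 and Ldhb) and 4 rose (Lipt2, Idh1, Gpt2 and Nfu1), with a median log2 change of -0.037. These are 15.8% and 10.5% of the list, near the 12.2% and 8.83% of all genes tested that fell and rose. Nnt, the transhydrogenase that makes NADPH in the inner membrane, averaged 111 ± 2.79 FPKM in siECHS1 and 127 ± 1.42 FPKM in siNC (log2 change -0.19, SE 0.030, limma adjusted p = 0.00185), and Idh1, the cytosolic isocitrate dehydrogenase, averaged 39.3 ± 0.621 FPKM in siECHS1 and 34.4 ± 0.770 FPKM in siNC (log2 change 0.19, SE 0.033, limma adjusted p = 0.00329). Ldhb, the lactate dehydrogenase subunit abundant in heart, averaged 579 ± 12.6 FPKM in siECHS1 and 653 ± 35.4 FPKM in siNC (log2 change -0.17, SE 0.042, limma adjusted p = 0.016). Lipt2, which attaches octanoyl groups for lipoate synthesis, averaged 3.55 ± 0.614 FPKM in siECHS1 and 2.09 ± 0.464 FPKM in siNC (log2 change 0.56, SE 0.12, limma adjusted p = 0.00987), a low level that rests on 484 reads over the siECHS1 libraries and 277 over the siNC libraries. Iba57, which helps mature iron-sulfur proteins, averaged 4.30 ± 0.433 FPKM in siECHS1 and 5.22 ± 0.121 FPKM in siNC (log2 change -0.23, SE 0.067, limma adjusted p = 0.0312). The call of Iba57 was lost in 8 of 16 alternatives, with limma adjusted p between 0.0505 and 0.0901: without the low-level filter, without siECHS1 library 2, 3 or 4, and with any one siNC library left out. Gls2, a glutaminase, averaged 3.26 ± 0.241 FPKM in siECHS1 and 4.24 ± 0.261 FPKM in siNC (log2 change -0.30, SE 0.067, limma adjusted p = 0.0105), and Gpt2, the mitochondrial alanine aminotransferase, averaged 6.19 ± 0.359 FPKM in siECHS1 and 5.08 ± 0.180 FPKM in siNC (log2 change 0.24, SE 0.057, limma adjusted p = 0.0135). Slc25a13, an aspartate-glutamate carrier, fell although its groups overlap (23.2 ± 1.16 FPKM in siECHS1 and 26.1 ± 1.32 FPKM in siNC, log2 change -0.16, SE 0.049, limma adjusted p = 0.0417). Its call was lost in 10 of 17 alternatives, with limma adjusted p between 0.0517 and 0.110: without the variance trend, under both scalings, without the low-level filter, without siECHS1 library 1, 2 or 4, and without siNC library 1, 2 or 3. Ogdhl, a relative of Ogdh, averaged 10.2 ± 0.169 FPKM in siECHS1 and 9.33 ± 0.762 FPKM in siNC and was not called (log2 change 0.12, SE 0.057, limma adjusted p = 0.166).

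Several members share a start region with another gene. Idh3g and Ssr4, transcribed in opposite directions, start 176 bases apart. Ssr4 averaged 189 ± 14.7 FPKM in siECHS1 and 169 ± 7.87 FPKM in siNC and was not called (log2 change 0.16, limma adjusted p = 0.0616). Cpsf7, which starts 756 bases from Sdhaf2, fell with it, at 18.6 ± 1.20 FPKM in siECHS1 and 20.9 ± 0.803 FPKM in siNC (log2 change -0.17, limma adjusted p = 0.0428). The neighbours of Sdha, Mdh1 and Mdh2 within 1000 bases (Ccdc127, Wdpcp and Styxl1) were not called, and Timm8b, 146 bases from the start of Sdhd, was below 1 FPKM and untested. Reads in the 16 mitochondrially encoded genes made up 5.17% ± 0.174 of each siECHS1 library and 5.74% ± 0.240 of each siNC library, a share that moved in the same direction as the fallen members, and its part in their change was not tested.

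**Figure D5:**
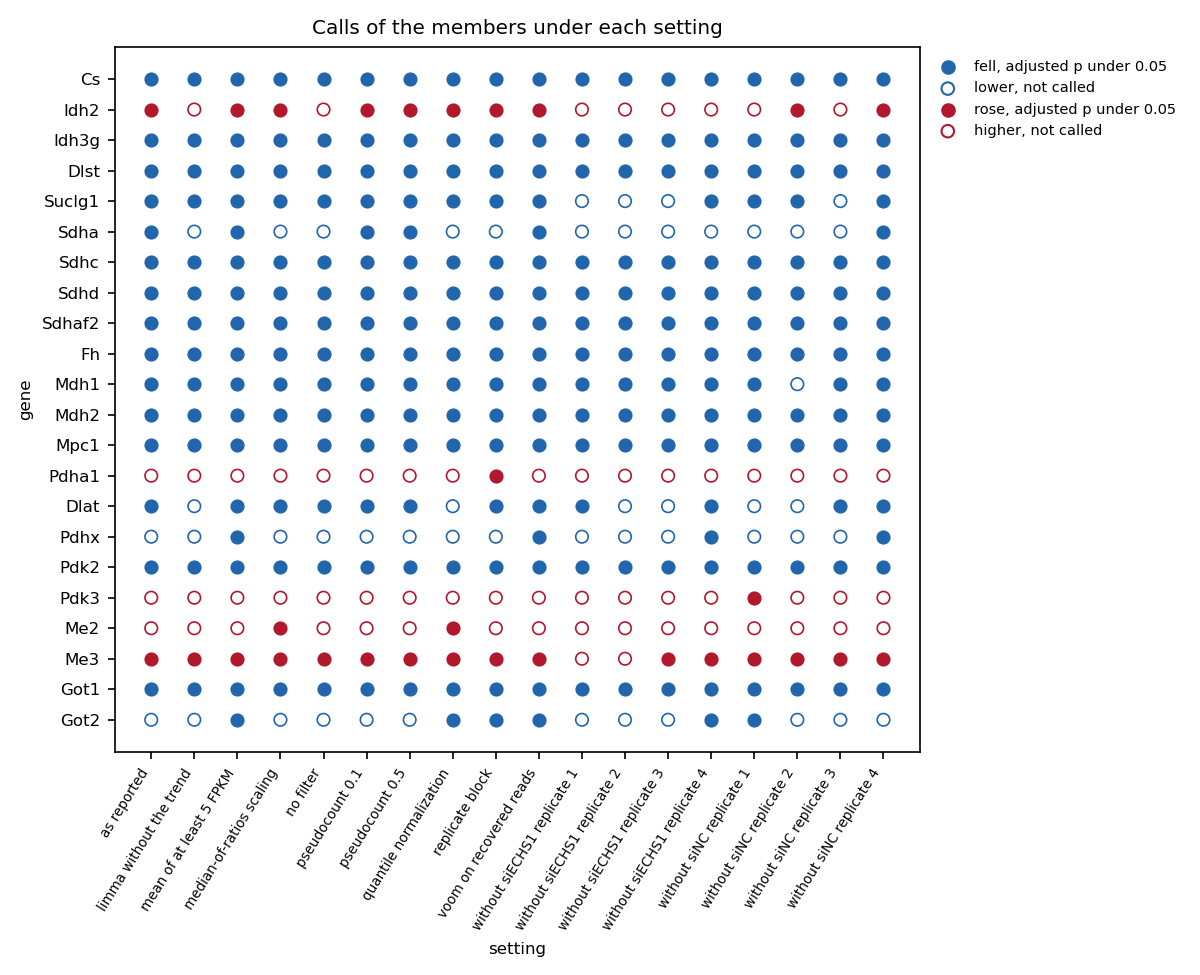
Call of each member with a call in at least 1 setting (rows) under the reported settings and the 17 alternatives (columns), with filled points where the limma adjusted p is under 0.05, blue for lower and red for higher in siECHS1. The rows of 11 members, Dlst and Mpc1 among them, are blue and filled throughout, while Sdha, Dlat and Idh2 have open points in several columns.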

How the data were processed

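The authors deposited FPKM values per gene, 1 column for each of 8 libraries, with Ensembl rat gene identifiers and coordinates. Per the labels' protocols, libraries were made from 1 µg of total RNA with the Illumina TruSeq RNA kit. The submitters' processing notes name Bowtie 0.12.2 and, giving no role, the builds Rnor_6.0 and mm8. Coordinates are as the table lists them, on rat chromosomes, and the promoter coordinates are RefSeq's, in GRCr8, a different build. Not given in the sources used here are the counting tool, the annotation release and the strand setting. Rows that overlap or share a protein match may share reads.

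Values were transformed to log2(FPKM + 1), a scale that understates changes of low genes. The 12616 of 21017 genes that averaged 1 FPKM or more were tested in limma 3.58.1 (R 4.3.3; eBayes with trend), two-sided, adjusted by Benjamini-Hochberg over all genes tested with a threshold of 0.05. Log2 ratios of 9 gene pairs were compared by an exact two-sided permutation test over 70 assignments of libraries. A planned ratio of Dlst to Ogdh could not be computed. Whole reads were recovered from the steps between FPKM values (100% of values within 0.01 of a read), to state depth, and limma voom on those reads was an added alternative. Library totals were 16953309 to 18237111 reads. The number of reads sets the precision, and stated spreads cover the libraries at hand. Libraries of 1 group differed by more than counting noise (chi-square per degree of freedom 2.56 to 6.02), so none was counted as the same library deposited again, though separate preparations of the same RNA would also exceed counting noise.

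The members, the lists, the marker genes and the tests were chosen with earlier results of these data known. Full values are given for members past the threshold whose groups do not overlap, and for Dlst, Pdk4, Pdk2, Pc and Pdha1 whatever their values. Up to 8 related genes past the threshold with the largest change are named, and Ogdhl and genes beside or overlapping a member were added after their values were seen. Alternatives changed the pseudocount, filter, scaling, variance trend, replicate block and libraries used. The fit was checked on simulated data. Python 3.11.15, pandas 2.3.3 and matplotlib 3.10.9 made the tables and figures.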

Additional observations from a re-analysis of the deposited data

Results flagged for a closer look

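In 8 of 90 groups of 4 libraries examined, 1 library stood far from the other 3 (its gap to the nearest divided by the group's range was above Dixon's 95% critical value), and chance alone flags about 1 in 20 groups. In siECHS1, library 1 stood apart for Dlat at 62.3 FPKM (the others 58.1 to 58.8) and for Got1 at 94.3 FPKM (89.5 to 90.1). Library 3 of siECHS1 stood apart for Pdk1 at 25.5 FPKM (23.6 to 23.9) and for Pdk2 at 48.5 FPKM (46.2 to 46.4). For Pdp2, siECHS1 library 2 had 4.43 FPKM (3.81 to 3.84), and for Nnt siECHS1 library 4 had 107 FPKM (112 to 113). In siNC, library 4 stood apart for Pc at 18.7 FPKM (16.9 to 17.1) and for Iba57 at 5.40 FPKM (5.13 to 5.17). Without siECHS1 library 1, Dlat and Got1 kept their call, and Pdk2 kept its call without siECHS1 library 3. Nnt kept its call without siECHS1 library 4, while the Iba57 log2 change was no longer called without siNC library 4 (limma adjusted p = 0.0773).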

How the results depend on the processing

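Of the 15 members that fell, 11 were called in all 17 alternatives (Cs, Idh3g, Dlst, Sdhc, Sdhd, Sdhaf2, Fh, Mdh2, Mpc1, Pdk2 and Got1), and of the 20 not called, 15 were called in none. The number of members that fell lay between 12 and 17 across the alternatives. The number that rose was 1 without the variance trend and 1 without the low-level filter, in place of 2, and 0 to 2 with a library left out: 0 without siECHS1 library 1 or 2, and 1 without siECHS1 library 3 or 4 or siNC library 3. Whether the replicate numbers pair the libraries is not settled (correlations of same-numbered libraries 0.17, -0.051, 0.0072 and 0.075). For siECHS1 libraries 1 and 4 the same-numbered siNC library correlated best, while for libraries 2 and 3 another did. With the number as a replicate block 15 members fell and 3 rose, and 1669 genes of the whole table fell and 1283 rose, in place of 1541 and 1114. In that limma fit Pdha1 (adjusted p 0.0439) and Got2 (0.0408) gained a call and Sdha (0.0523) lost its call. The ratio of 3 gene pairs differed at the unadjusted level, 2 under quantile normalization, and 1 to 3 with a library left out (1 without siNC library 2 or 4), an alternative chosen after seeing the data, as was voom on recovered reads (17 fell, 2 rose). Log2 changes that are near 0 turned sign, none of them called: under median-of-ratios scaling Sdhaf1 was 0.000448 and Pdp1 0.0109, and under quantile normalization Sdhaf1 was 0.00787, Pdp1 0.00769 and the Sucla2 to Suclg2 log2 ratio difference 0.00159. With a library left out they ranged over Sdhaf1 -0.0731 to 0.0604, Pdp1 -0.0626 to 0.0325, Pdp2 -0.0299 to 0.0679, Pdk4 -0.0943 to 0.0512, Pc -0.0532 to 0.00555, Sdhb -0.0616 to 0.00118, and the Sucla2 to Suclg2 difference -0.0478 to 0.0163. The causes were not tested. Depth limits Sdhaf1, which had the fewest reads of the members.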
